A study of Homo sapiens with 9 samples.

Results

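The miRNAs described here are 59 of the 2019 miRNA probes of an array run on the human mast cell line HMC-1 and on the RNA that its cultures released. Each is a probe for a human miRNA numbered below 1000 that was detected on all 3 arrays of the cells, after a fixed set of numbers, among them those of miR-17, miR-21 and miR-221, had been set aside; let-7 and probes for several miRNAs were not taken. They make up 59 of the 277 miRNA probes detected on all 3 cell arrays. They were thus chosen by their own cell signals, together with the numbers set aside, and the rule reads no HD or LD value. The numbers to set aside were, however, picked with earlier results of these data known, so the choice was not blind to the fractions. They share no single function, family or genomic cluster.

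HMC-1 is a human line from a mast cell leukaemia that grows without added factors. There were 3 groups of 3 libraries. The cell libraries held the RNA of the cultured cells, the HD libraries held extracellular RNA from the dense part of a sucrose gradient, and the LD libraries held extracellular RNA from its light part. No group had a further genotype or treatment, and libraries with the same number came from the same culture, per the design text. All values come from a single line, and the gradient separated released material by density, so a fraction may hold several kinds of particles.

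A miRNA is cut from a hairpin RNA, and the arms of the hairpin are called 5p and 3p. The arm that is kept in an Argonaute protein pairs with messenger RNAs, mainly through its seed, bases 2 to 8, and lowers their output. Cells release part of their miRNAs in vesicles and in protein or lipoprotein particles, and vesicles float at lower densities in sucrose than free protein complexes. In mast cells, miRNAs are known to act on KIT signalling, degranulation and cytokine output.

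The mature sequences below are those of miRNAs the results turn on, from RefSeq on GRCh38.p14, where 53 of the 59 were matched by name. They are written 5′ to 3′ with the seed in capitals. The first set was higher in the light fraction than in the dense fraction.
miR-191-5p: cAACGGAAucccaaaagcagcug
miR-210: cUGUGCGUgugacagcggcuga
miR-361-5p: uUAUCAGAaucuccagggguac
miR-342-3p: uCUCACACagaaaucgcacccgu
miR-187-5p: gGCUACAAcacaggacccgggc
miR-744-5p: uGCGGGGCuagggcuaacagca
To these belong miR-425-5p and miR-937-5p, which are named only. The array's miR-210 is listed in RefSeq as miR-210-3p.

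The second set holds the 4 miRNAs on all dense arrays and miR-671-5p, which was on 2 of them. Guanine makes up 33.3% to 63.6% of their bases.
miR-149-3p: aGGGAGGGacgggggcugugc
miR-513a-5p: uUCACAGGgaggugucau
miR-762: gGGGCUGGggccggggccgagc
miR-638: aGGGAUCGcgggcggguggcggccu
miR-671-5p: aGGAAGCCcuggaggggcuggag

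The third set is shown as an example of the 17 miRNAs found in cells and on no extracellular array.
miR-664b-3p: uUCAUUUGccucccagccuaca
miR-664a-3p: uAUUCAUUuauccccagccuaca
miR-7-5p: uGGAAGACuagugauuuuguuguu

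The following 4 share the seed AGUGCAA of the miR-130, miR-301 and miR-454 family, the largest seed group among the 59. A second shared seed, CAGUGCA, is that of miR-148a-3p and miR-148b-3p.
miR-130b-3p: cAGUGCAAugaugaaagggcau
miR-301a-3p: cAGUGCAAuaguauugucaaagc
miR-301b: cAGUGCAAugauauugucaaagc
miR-454-3p: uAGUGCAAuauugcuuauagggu

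On GRCh38.p14, miR-191-5p lies at chr3:49020672-49020694 on the minus strand, within the span of DALRD3. miR-361-5p lies at chrX:85903681-85903702 (minus), within CHM, and miR-342-3p at chr14:100109715-100109737 (plus), within EVL. miR-210 is at chr11:568112-568133 (minus) and miR-187-5p at chr18:35904871-35904892 (minus). For both, no spanning gene was found, but genes whose symbol starts with MIR were left out of the search. miR-744-5p lies at chr17:12081909-12081930 (plus), within MAP2K4. In the second set, miR-149-3p lies at chr2:240456056-240456076 (plus), within GPC1, miR-762 at chr16:30893951-30893972 (plus), within BCL7C, and miR-638 at chr19:10718419-10718443 (plus), within DNM2. miR-664a-3p, at chr1:220200549-220200571 (minus), and miR-664b-3p, at chrX:154768635-154768656 (plus), lie within the small nucleolar RNA genes SNORA36B and SNORA36A. The strand of the spanning genes was not compared.

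Signals are the authors' normalized intensities, in which the median detected miRNA probe of every array is 25, and a probe is called detected where the file gives such a value. Between 440 and 506 probes were detected on a cell array and 303 to 368 on an LD array. The share detected on an HD array was 12.6% to 16.3% of the miRNA probes. The lowest detected signal of an array, its floor, was 9.60 to 10.98 in cells, 11.6 to 12.8 in HD and 10.4 to 13.5 in LD. The raw signal of the spike controls, RNAs added in a set amount, had medians of 4833 to 12744 on cell arrays, 457 to 2431 on HD arrays and 1428 to 5055 on LD arrays. All signals are therefore relative, and the amount of RNA per fraction and the content per particle cannot be told apart. The 3 cell arrays lay on a slide of their own, so slide and group cannot be told apart for cells. The 3 HD arrays shared a slide with LD replicate 1, and LD replicates 2 and 3 lay on another.

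The label of the cells was set against marker miRNAs. Of 7 mast cell and myeloid markers, 6 were detected on all cell arrays, with miR-155-5p on none, and their summed signal was 2323 to 4367 in cells, 13.2 to 56.0 in HD and 520 to 1087 in LD. Of 8 epithelial, 4 muscle and 1 liver marker, 0 were on all cell arrays. Of 2 neural markers, miR-9-5p was on all of them (65.7 to 68.1) and miR-124-3p on none, and the endothelial marker miR-126-3p was on all (49.4 to 117.2). The sum of the 3 red cell markers ran from 0 to 52.4 in cells, from 68.2 to 597 in HD and from 32.9 to 106.3 in LD. miR-451a alone was at 567.6, 49.6 and 120.9 in HD, and miR-144-3p and miR-486-5p were on no cell array. The part of these markers in the results below was not tested.

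Most of the 59 miRNAs were not detected in HD, and 13 of them reached every LD array. In HD, 39 were detected on no array, 13 on 1, 3 on 2 and 4 on all 3. In LD, 24 were detected on no array, 20 on 1, 2 on 2 and 13 on all 3. The single arrays differed: HD replicates 1, 2 and 3 detected 13, 12 and 6 of the 59, and LD replicates 1, 2 and 3 detected 18, 23 and 22. Taken by miRNA, 17 were seen in neither fraction, 22 in LD alone, 7 in HD alone and 13 on some array of each. All 4 that were on every HD array were also on every LD array.

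For comparison, of the 91 set-aside probes numbered below 1000 that every cell array detected, 50.5% were on no HD array and 14.3% on all 3, against 66.1% and 6.78% of the 59. In LD, 18.7% of the 91 were on no array and 51.6% on all 3, against 40.7% and 22%. Of the probes numbered 1000 or above, 63.2% were on all HD arrays and 74.4% on all LD arrays. These shares are a description, since the set-aside numbers were picked with their values known.

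**Figure D1:**
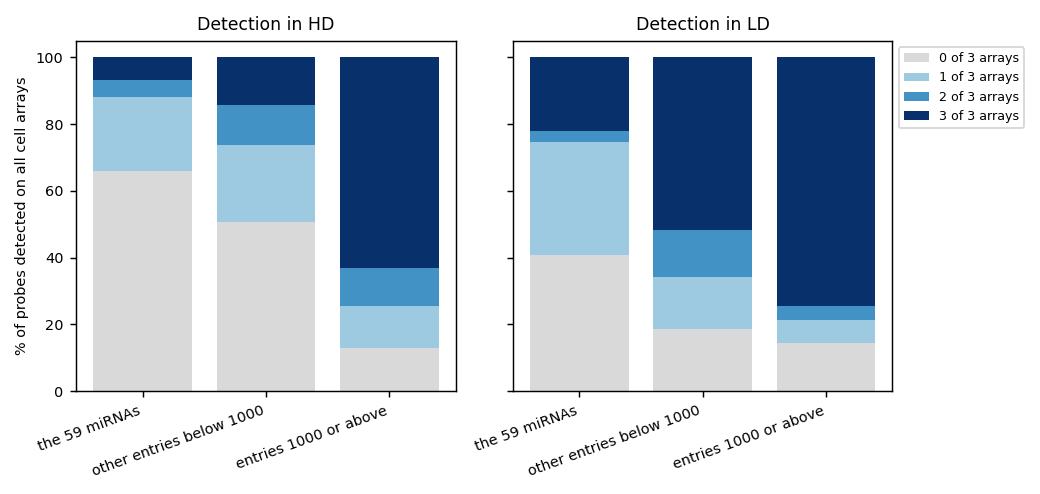
Share of probes (vertical axis, % of those detected on all cell arrays) by the number of HD arrays (left) and LD arrays (right) that detected them, for the 59 miRNAs, the 91 set-aside probes numbered below 1000 and those numbered 1000 or above. Of the 59, 66.1% were on no HD array and 40.7% on no LD array.

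The choice had a threshold, detection on the last of the 3 cell arrays. Just inside it lay miR-658, at 14.5, 10.7 and 13.3 in cells 1 to 3, and miR-345-5p, at 17.5, 13.7 and 9.60. Just outside it lay 38 probes of the same number range that 2 cell arrays detected, among them miR-711, at 18.6 and 10.9 in cells 1 and 3. That probe had 176, 202 and 88.1 in HD and 31.0, 66.7 and 46.0 in LD. Of these 38 probes, 6 were on all HD arrays and 3 on all LD arrays.

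**Figure D2:**
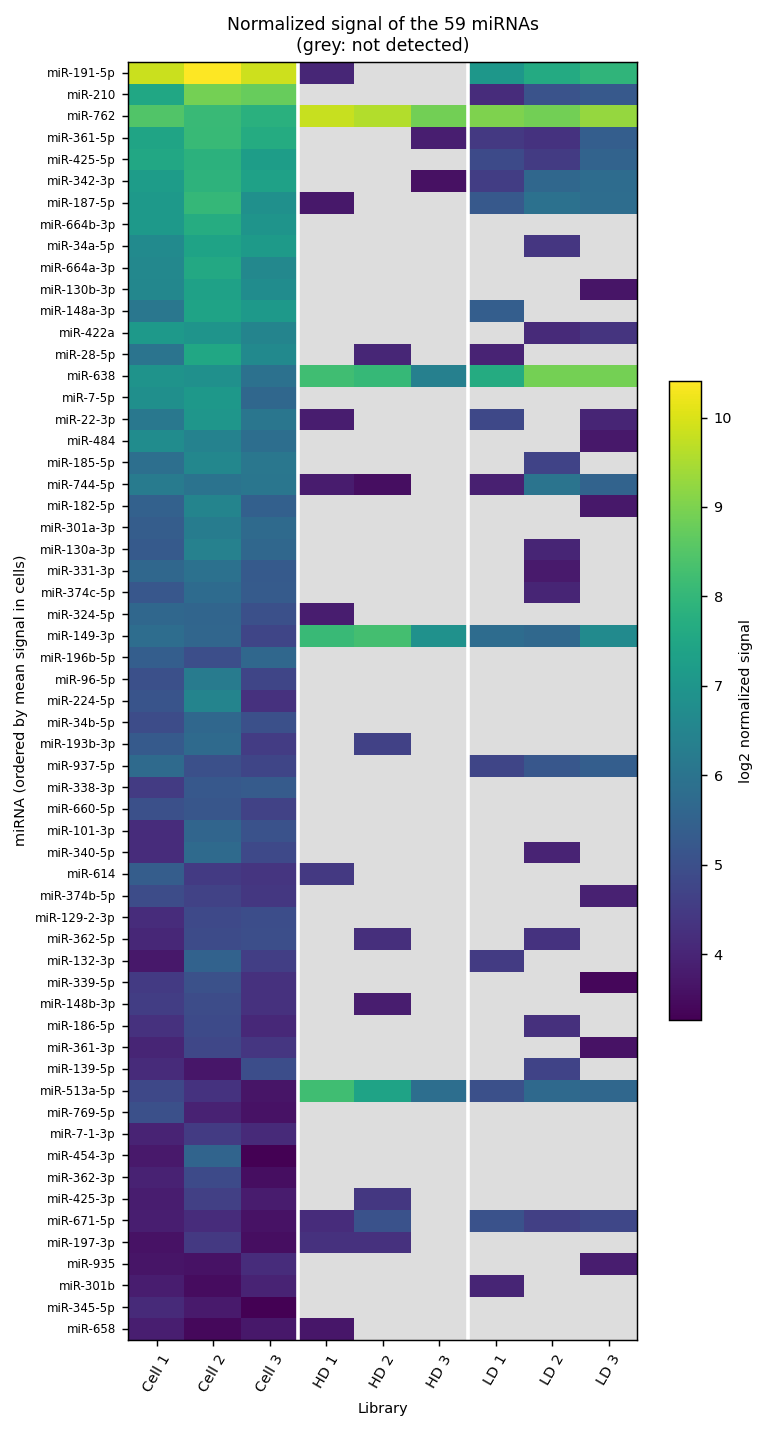
Normalized signal on a log2 colour scale for each of the 59 miRNAs (rows, ordered by mean signal in cells) in the 9 libraries (columns), with grey where a miRNA was not detected. HD holds 4 rows that are filled on all 3 arrays, and LD holds 13.

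The comparison of LD with HD asks how the same miRNA is shared between the light and the dense released material, and the rule for the miRNAs reads neither fraction, although the choice was not blind to them. It was tested with limma over 334 probes, those detected on all 3 arrays of some group, with the culture as a block and Benjamini-Hochberg adjusted p under 0.05 as the threshold. All 59 entered through their cell arrays. An undetected value was set to the floor of its array. Of the 59, 8 were higher in LD and 2 were lower, while 49 were not called. These are 13.6% and 3.39% of the 59, beside 25.7% of all tested probes called higher and 26.3% called lower. The 17 of the 59 seen in neither fraction hold floor values alone there, so they could not be called and lower both shares. All 8 called higher and both called lower were among the 42 on at least 1 array of a fraction. Some other tested probes entered through the HD or LD arrays, the groups compared, so these shares are not like for like. The median difference of the 59 was 0.02 on the log2 scale, beside 0.01 over all tested probes. For the 17 seen in neither fraction the difference is that of the floors, also 0.01, so these medians say little about the fractions. The median was 0.13 for the 42 on at least 1 array of a fraction. For the 81 tested probes detected on all 9 arrays it was −0.86, with 15 called higher and 39 lower.

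The clearest difference was that of miR-191-5p, a widely expressed miRNA whose hairpin lies beside that of miR-425. Its signal was 915, 1357 and 935 in cells 1 to 3, 132.4, 198 and 243 in LD and 16.3 in HD replicate 1, with no detection on the other HD arrays. Every LD value was above every HD value. The log2 difference of LD minus HD was 3.82 ± 0.33 (SE, n = 3 per group), a 14.1-fold difference that floor values understate (limma adjusted p = 1.18e-05, higher in LD in 3 of 3 cultures). On the slide that held both fractions, LD replicate 1 exceeded the HD mean by 3.33 log2 units.

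The neighbouring hairpin gave miR-425-5p, at 186, 230 and 150 in cells and 29.3, 22.6 and 46.5 in LD. It was detected on no HD array, so on the authors' scale, against the array floors, LD was at least 2.59-fold higher (log2 difference 1.37 ± 0.34, n = 3 per group, limma adjusted p = 0.00614, 3 of 3 cultures; 1.27 within the shared slide). The difference was 0.71 on the spike control scale and 0.28 in the deposited log2 table, which keeps background signal. The other arm, miR-425-3p, was found on HD replicate 2 at 21.6 and on no LD array, and it was not called (−0.29, 95% interval −0.93 to 0.35). Thus 2 of the 3 miRNAs of this cluster among the 59 were called higher in LD, and both are 5p arms; the array held 4 probes of the cluster.

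miR-187-5p was at 137, 259 and 115 in cells, at 38.5, 60.5 and 55.9 in LD and at 13.3 in HD replicate 1 only. The groups did not overlap, and LD was higher by 2.05 ± 0.33 log2 units, or 4.13-fold (limma adjusted p = 0.000465, n = 3 per group, 3 of 3 cultures; 1.65 within the shared slide). miR-342-3p, which is abundant in blood cells and lies in EVL, was at 149, 237 and 163 in cells and 23.4, 49.7 and 54.8 in LD. It was found in HD on replicate 3 alone, at 11.96, the floor of that array. Its LD values were also all above HD, with a log2 difference of 1.72 ± 0.34 (3.30-fold, limma adjusted p = 0.00153, n = 3 per group, 3 of 3 cultures; 0.95 within the shared slide).

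miR-210, the miRNA that hypoxia induces, had a signal of 183.1, 479 and 425.4 in cells and of 18.1, 34.1 and 38.5 in LD. No HD array detected it, and on the authors' scale LD was at least 2.38-fold above the HD floors (log2 difference 1.25 ± 0.34, limma adjusted p = 0.0108, n = 3 per group, 3 of 3 cultures). The difference was 0.58 both within the shared slide and on the spike control scale, and 0.23 in the deposited log2 table, and it was not called in any of these. miR-361-5p was at 174, 270 and 203 in cells and 21.7, 19.8 and 42.4 in LD, and in HD on replicate 3 alone at 14.7. All LD values lay above that value, with a log2 difference of 1.02 ± 0.33 (limma adjusted p = 0.0242, n = 3 per group, 3 of 3 cultures; 0.74 within the shared slide). The difference of miR-361-5p was 0.35 and not called on the spike control scale. In the deposited log2 table it was 0.21 and called. Without scaling, after quantile normalization and with undetected values left missing, miR-361-5p was not called. Its other arm, miR-361-3p, appeared in LD replicate 3 at 12.3 and nowhere in HD, and was not called at 0.10 (95% interval −0.55 to 0.75).

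miR-744-5p and miR-937-5p kept more of their cell signal in LD. miR-744-5p was at 76.0, 63.1 and 66.7 in cells, 14.8, 65.0 and 46.6 in LD, and 13.9 and 11.6 in HD replicates 1 and 2. LD replicate 1 was close to HD and the other LD arrays were well above it, with a log2 difference of 1.51 ± 0.46 (limma adjusted p = 0.0171, n = 3 per group, 3 of 3 cultures). Within the shared slide, which holds that LD replicate, the difference was 0.25. miR-937-5p was at 52.8, 31.9 and 26.8 in cells and at 27.0, 37.2 and 42.1 in LD, so these groups overlapped, and it was on no HD array. On the authors' scale LD was at least 2.88-fold above the HD floors (log2 difference 1.53 ± 0.34, limma adjusted p = 0.00331, n = 3 per group, 3 of 3 cultures; 1.16 within the shared slide). The difference was 0.86 on the spike control scale and 0.26 in the deposited log2 table.

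The direction was the opposite for miR-149-3p and miR-513a-5p. miR-149-3p, an arm of a hairpin within the glypican gene GPC1, was at 56.6, 49.6 and 26.8 in cells, at 275, 309 and 116 in HD and at 55.7, 51 and 102 in LD. The HD values were all above the LD values, although HD replicate 3 and LD replicate 3 were close. LD minus HD was −1.70 ± 0.45 log2 units, so HD was 3.24-fold higher (limma adjusted p = 0.00871, n = 3 per group, 3 of 3 cultures; −1.95 within the shared slide). miR-513a-5p, of a primate miRNA cluster on the X chromosome, was at 28.3, 19.8 and 12.7 in cells, at 298.8, 170 and 57.2 in HD and at 32.4, 52.1 and 49.9 in LD. Here too the lowest HD value was above the highest LD value, and HD was 3.26-fold higher (−1.70 ± 0.47, limma adjusted p = 0.0109, n = 3 per group, 3 of 3 cultures; −2.14 within the shared slide).

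A further pair was on every array without a call between the fractions. miR-762 was at 352, 276 and 222.8 in cells, 900, 773 and 469 in HD and 518, 470 and 624.7 in LD. The fractions overlapped, with a log2 difference of LD minus HD of −0.37 (95% interval −1.07 to 0.34, limma adjusted p = 0.418, lower in LD in 2 of 3 cultures). miR-638 was at 123, 115 and 61.4 in cells, 299.1, 266 and 83.1 in HD and 203.7, 482 and 479 in LD. Its fractions overlapped as well, and its difference of 0.94 (95% interval −0.14 to 2.03, limma adjusted p = 0.144) was positive in 2 of 3 cultures; HD replicate 3 and LD replicate 1 were the low arrays. miR-638 was called higher in LD, at 1.39 and 1.62, when HD replicate 1 or LD replicate 1 was left out, and at 1.69 without culture 1. It was also called when the probes common to all arrays set the scale (1.68), after quantile normalization (0.83) or normexp (0.99), and in the deposited log2 table (0.84). With undetected values left missing or the probes on all arrays alone, the same difference of 0.94 was called as well, so the call depends on the processing. For these 4 miRNAs HD replicate 3 was the lowest HD array.

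**Figure D3:**
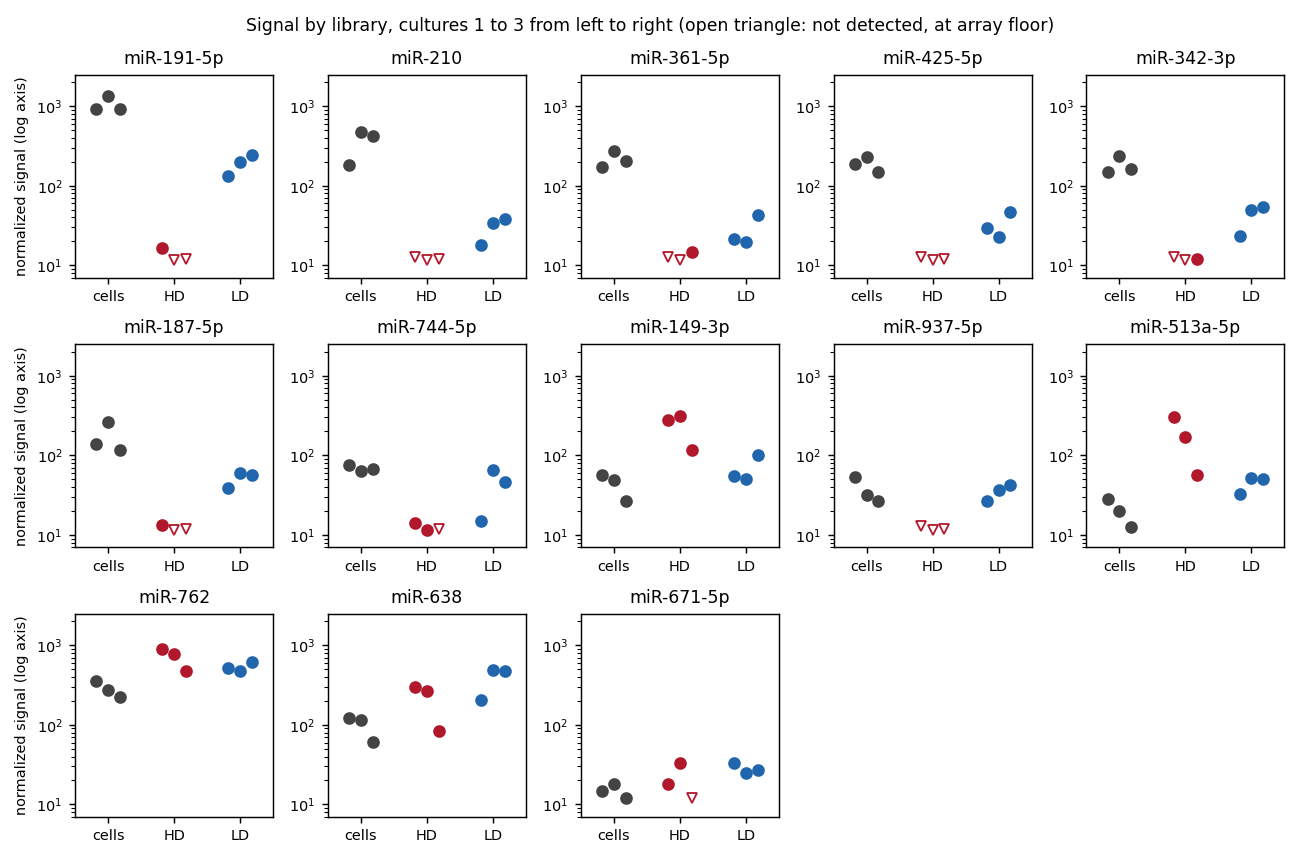
Normalized signal (log axis) in cells, HD and LD for the 10 miRNAs called between the fractions and for miR-762, miR-638 and miR-671-5p, one point per library with cultures 1 to 3 from left to right; open triangles are arrays without detection, drawn at the array floor. miR-149-3p and miR-513a-5p have their highest points in HD, while the 8 called higher in LD lie at or near the floor in HD.

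The calls differed in how far they rested on single libraries. miR-191-5p, miR-187-5p, miR-342-3p and miR-425-5p were called without any 1 library or any 1 culture, and miR-937-5p without any 1 library, though not without culture 2 (1.45). The call of miR-210 ended without HD replicate 2 (1.03) or HD replicate 3 (1.05), and that of miR-361-5p without HD replicate 2 (0.95), HD replicate 3 (0.95) or LD replicate 3 (0.70). miR-744-5p was no longer called without HD replicate 2 (1.27), HD replicate 3 (1.39) or LD replicate 2 (1.02). For miR-149-3p the call ended without HD replicate 2 (−1.40) or LD replicate 2 (−1.32), and for miR-513a-5p without HD replicate 2 (−1.65). Without LD replicate 1, miR-513a-5p was still called at −1.08. Without HD replicate 2, 5 of the 59 were called higher and 0 lower, and the share of all tested probes was not counted for that fit. When the slide was entered as a random block, the calls of miR-210, miR-361-5p and miR-744-5p ended (1.12, 0.96 and 0.81). With the slide as a fixed block, which leaves LD replicate 1 alone against HD, the calls of miR-425-5p, miR-149-3p and miR-513a-5p ended too (1.27, −1.95 and −2.14). Leaving out culture 2 ended the calls of miR-210, miR-361-5p, miR-744-5p, miR-149-3p and miR-513a-5p. Leaving out culture 3 ended those of miR-210 (1.03), miR-361-5p (0.76) and miR-744-5p (1.29), and leaving out culture 1 that of miR-513a-5p (−0.95). In turn, on the spike control scale those of miR-342-3p, miR-425-5p and miR-937-5p ended among others. Leaving undetected values missing gives no LD minus HD value for the miRNAs on no HD array. Of the 10, the probes on all arrays alone give a value only for miR-149-3p and miR-513a-5p. Otherwise none of the 10 changed direction in the 27 alternatives tried.

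**Figure D4:**
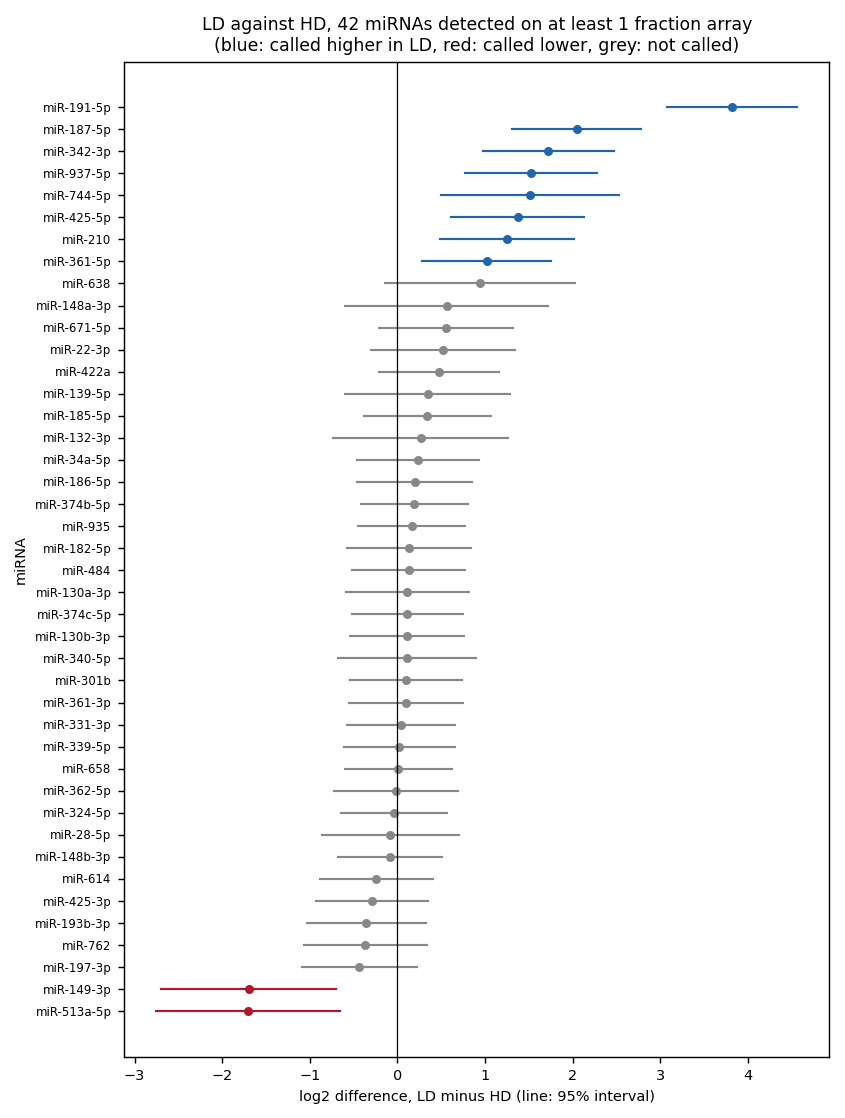
Log2 difference of LD minus HD (horizontal axis) for the 42 miRNAs detected on at least 1 array of a fraction, as points with 95% intervals from the limma model. The 8 blue points lie between 1.02 and 3.82, both red points at −1.70, and the grey intervals all include 0.

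Against the cells, whose signals chose the miRNAs, differences are given as a description with no test. On the authors' scale 53 of the 59 had a lower mean in HD than in cells and 54 in LD, but when arrays were scaled on the spike controls, which raises HD by 2.89 and LD by 2.22 log2 units against cells, 14 and 15 did. The 14 that were lower in HD under every scaling and normalization tried included miR-191-5p, at a log2 difference of −6.32 ± 0.33 on the authors' scale, and miR-210, which was at least 27.6-fold lower on that scale. miR-361-5p was 16.4-fold lower in HD and 8.08-fold lower in LD, and miR-425-5p was at least 15.4-fold lower in HD and 5.93-fold lower in LD, again on the authors' scale; both were lower under every scaling, by as little as 0.78 and 0.69 log2 units in HD. The others of the 14 were miR-342-3p, miR-187-5p, miR-664b-3p, miR-34a-5p, miR-664a-3p, miR-130b-3p, miR-148a-3p, miR-422a, miR-28-5p and miR-7-5p. For miR-28-5p and miR-7-5p the smallest differences in HD were only −0.07 and −0.02 log2 units.

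The miRNAs with a higher mean in the fractions than in cells were few. miR-149-3p and miR-513a-5p were 5.09-fold and 7.43-fold higher in HD than in cells, a direction held under every scaling, and each HD value was above each cell value. miR-513a-5p, miR-762, miR-638 and miR-671-5p were higher in LD than in cells under every scaling, by 2.28-fold, 1.92-fold, 3.79-fold and 1.92-fold on the authors' scale. miR-671-5p, known for guiding the cutting of the circular RNA of CDR1, was at 14.6, 18 and 12.2 in cells, 33.6, 24.7 and 27.3 in LD and 18 and 33.4 in HD replicates 1 and 2. Its LD and cell values did not overlap, and between the fractions it was not called (0.55, 95% interval −0.21 to 1.32), except on the scale of the common probes (1.28).

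Of the 10 with the highest cell signals, miR-664b-3p and miR-664a-3p were in neither fraction. miR-664b-3p was at 138, 207 and 125.1 in cells, so on the authors' scale, against the floors, it was at least 12.6-fold lower in HD and at least 12.5-fold lower in LD. miR-664a-3p was at 96.1, 189 and 96.1 and was at least 9.95-fold and 9.85-fold lower on that scale. Over all scalings and normalizations the smallest log2 differences from cells were −0.59 in HD and −0.54 in LD for miR-664b-3p, and −0.42 and −0.51 for miR-664a-3p. Both lie in small nucleolar RNAs, which guide the modification of other RNAs in the nucleus. For comparison, miR-187-5p, with 137, 259 and 115 in cells, was 3.16-fold lower in LD. miR-34a-5p, a target of p53, was at 103.5, 168 and 143 in cells and on LD replicate 2 alone, at 20.8. miR-7-5p, known for acting on the EGF receptor, was at 112, 135 and 49.7 in cells and on no extracellular array, at least 7.45-fold lower in LD on the authors' scale (−0.39 log2 units at the smallest), and its partner arm miR-7-1-3p was also on none.

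The seed family of miR-130, miR-301 and miR-454, which is known to act on TGF-beta signalling, had 5 members here, of 9 such probes on the array. None of the 5 was on any HD array. miR-130b-3p was at 94.2, 162 and 106.97 in cells and at 12.6 in LD replicate 3. miR-130a-3p, with 39.2, 85.1 and 50.1 in cells, was on LD replicate 2 at 16.0, and miR-301b, at 14.3, 11.3 and 15.7 in cells, was on LD replicate 1 at 16.1. Each LD array thus detected a different member. miR-301a-3p (41.3, 76.9 and 52.8 in cells) and miR-454-3p (13.4, 47.1 and 9.62) were on no extracellular array. Between the fractions 0 of the 5 were called, with a median difference of 0.10. Of all tested probes, 25.7% were called higher and 26.3% lower. All HD values of the 5 were floors, so this count says little about the family.

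Members of the remaining families were each on at most 1 array of a fraction. The miR-148 pair, which targets DNA methyltransferases, split by array: miR-148a-3p (69.0, 169 and 140 in cells) was on LD replicate 1 at 42.2, and miR-148b-3p (23.6, 30.1 and 19.4) on HD replicate 2 at 14.2. miR-182-5p and miR-96-5p, cluster partners that act on FOXO factors, were at 45.1, 89.0 and 43.7 and at 32.2, 75.5 and 26.8 in cells. Of the pair, miR-182-5p was on LD replicate 3 alone, at 13.3. From the cluster at Xp11, miR-362-5p was on HD replicate 2 (18.8) and LD replicate 2 (19.8), while miR-362-3p and miR-660-5p were on neither fraction. miR-34b-5p, of the p53-responsive family of miR-34a-5p, was also on no extracellular array. None of these was called between the fractions on the authors' scale with culture as the block. With slide as a fixed block in its place, or within the shared slide, LD replicate 1 alone is set against HD. There miR-148a-3p, which no other LD array detected, was higher in LD by 1.80.

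Among miRNAs with known roles in blood cells, miR-22-3p, which acts on TET2, was at 69.6, 130 and 67.1 in cells, 27.8 and 16.1 in LD replicates 1 and 3 and 14.2 in HD replicate 1. It was not called (0.52, 95% interval −0.31 to 1.35), but it was when the probes common to all arrays set the scale (1.25). With slide as a fixed block or within the shared slide, where LD replicate 1 alone is set against HD, its difference was 1.15. miR-422a, for which no such role is given here, was at 141, 124.95 and 89.2 in cells. It was at 17.2 and 20.3 in LD replicates 2 and 3, with no HD detection. Its difference was 0.47 (95% interval −0.21 to 1.16), and it was called at 1.203 on the scale of the common probes. miR-28-5p, which targets the thrombopoietin receptor, was at 64.4, 183.1 and 100.1 in cells, on HD replicate 2 at 16.4 and on LD replicate 1 at 15.7. miR-196b-5p, encoded in the HOXA cluster, was at 41.9, 31.4 and 49.9 in cells and on no extracellular array, and miR-193b-3p, which targets KIT, was on HD replicate 2 alone at 25. miR-132-3p, induced by CREB, was on LD replicate 1 alone at 22.7 and was not called with culture as the block. With slide as a fixed block or within the shared slide, which rest on that LD array alone, its difference was 0.91. miR-101-3p, which targets EZH2, was on no extracellular array.

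miR-197-3p was the only one of the 59 found on 2 HD arrays (19.5 and 19.4) and on no LD array, and it was not called (−0.44, 95% interval −1.09 to 0.22). On the spike control scale and after quantile or normexp normalization it was called lower in LD, but its sign was positive without scaling and when the probes common to all arrays set the scale (0.23 and 0.30). Within the cells, replicate 2 gave the highest value for 38 of the 59. The imprinted cluster of chromosome 14, with 72 probes on the array, and the primate cluster of chromosome 19, with 46, had 0 members among the 59.

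The base composition of the miRNAs was set beside their detection, without a test. The 4 on all HD arrays had guanine shares of 33.3% to 63.6%, with a median of 59%. The 34 with a sequence that were on no HD array had a median of 21.7%. The run GGG, searched on the miRNA strand, was in 4 of 4 and in 20.6%, and in 30.8% of the 1690 miRNAs of the array with a sequence. Of the 179 other probes with a sequence that all 3 cell arrays detected, 54.2% held GGG, and their median guanine share was 40%. In LD, the 11 with a sequence that were on all arrays had a median guanine share of 40.9%, against 22.7% for the 23 on no LD array. GGG was in 8 of the 11, in 30.4% of the 23 and in 15.8% of the 19 on 1 or 2 LD arrays. Of the 6 printed miRNAs that were higher in LD, miR-361-5p, miR-187-5p and miR-744-5p held GGG, and their guanine shares ran from 13.0% for miR-342-3p to 40.9% for miR-210 and miR-744-5p. Probe signal itself depends on sequence, and its part in these shares was not tested.

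**Figure D5:**
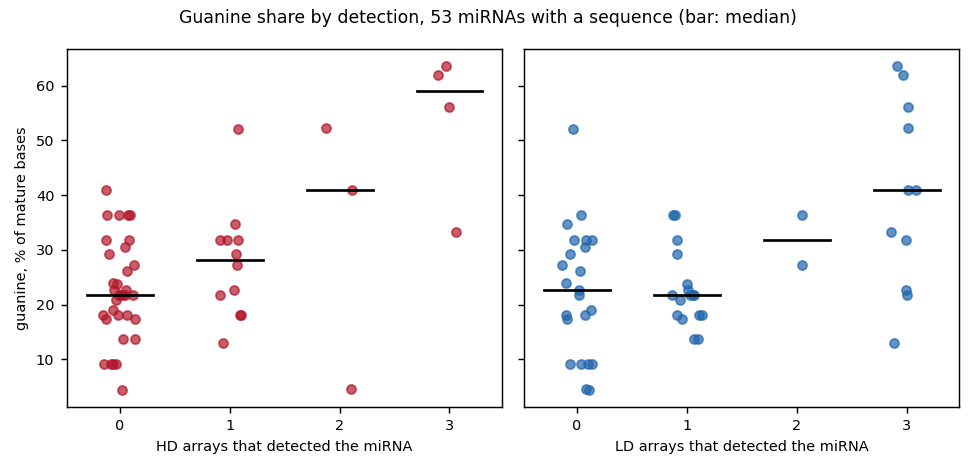
Guanine share of the mature sequence (vertical axis, % of bases) against the number of HD arrays (left) and LD arrays (right) that detected each of the 53 miRNAs with a sequence, with medians as bars. The 4 on all HD arrays lie between 33.3% and 63.6%, around a median of 59%.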

How the data were processed

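RNA of HMC-1 cells and of their HD and LD extracellular fractions was labelled with Hy5 and hybridised to 1-colour miRCURY LNA arrays, per the labels' protocols. For scanner, software and build, nothing is stated: not given in the sources used here. The authors deposited a raw intensity, a background-subtracted intensity (empty for dim spots) and a globally normalized intensity for 3200 spots per array, per the file headers. A table of log2 values for the series was also deposited, and served as an alternative only.

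The log2 of the normalized intensity was tested with limma 3.58.1 in R 4.3.3 (lmFit, contrasts.fit, eBayes; two-sided) on the 9 libraries, with culture as a block from the design text and 4 residual and 6.05 prior degrees of freedom. Deviations of same-numbered libraries correlated at −0.28 to 0.21. Spots marked NG, of which 0 were of the 59, were left out. p-values measure the spread between libraries, and the number of arrays limits precision. Where undetected values stand at floors, that spread is partly one of array floors. For miR-210, miR-425-5p and miR-937-5p all HD values are floors, and the single HD detection of miR-342-3p equals its floor. Their SEs and p-values therefore hold no spread of the miRNA itself between HD libraries. Where no array of a group detected a probe, folds are bounds against the array floors on the authors' scale only; other folds with undetected values understate the difference. SEs are those of the model. Slides come from the array and scan labels. Named miRNAs are the 10 highest in cells, those called with 1 sign in all cultures, those on all arrays and members of seed or cluster lists. miR-197-3p, miR-711 and miR-671-5p were singled out after their values were seen, and miR-422a meets none of these rules. The miRNAs and lists were chosen with earlier results of these data known. The fit was tested on simulated data. Figures used matplotlib 3.10.9.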

Additional observations from a re-analysis of the deposited data

How the results depend on the processing

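Among the 59, the 10 calls between LD and HD kept their direction in every one of 27 alternatives that gave them a value; miR-191-5p and miR-187-5p kept their call in each. Scaling on the probes common to all arrays shifted LD minus HD by 0.73 log2 units and gave 13 higher; no scaling shifted it by 0.66 and gave 6 calls, 0 of them lower. Spike control scaling shifted it by −0.67 and gave 5 calls, 2 higher. The probes on all arrays alone, where 4 of the 59 remain, gave 3 calls, 1 higher. Undetected values left missing gave 5 higher, and slide as a random block gave 5 higher. There were 0 lower with log2 of the value plus 1, with the HD and LD libraries alone, with slide as a fixed block, and within the shared slide (LD replicate 1 against 3 HD arrays, which assumes that the lone array varies like the others). Without the culture block (no replicate block) the counts were again 8 higher and 2 lower and the same 10 miRNAs were called. Leaving out a library or a culture gave 4 to 11 calls, 4 to 9 higher and 0 to 2 lower, lowest without culture 2. The share of all tested probes called under each alternative was not counted. A scaling shifts all probes alike, so these counts do not show how the 59 differ from other probes. The cause of these changes was not tested.

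The median difference from cells, −1.42 in HD and −1.34 in LD, was −2.87 and −2.06 when the probes common to all arrays set the scale, and 1.47 and 0.88 on the spike controls. It was −0.17 and −0.16 after quantile normalization, −0.29 and −0.27 with normexp added, and −0.17 and −0.16 in the deposited log2 table; without scaling LD was at −0.48. The floors limit what can be seen in HD: a miRNA under them is not shown to be absent.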
